A study of Mus musculus with 6 samples.

Results

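The complement components described here are the 6 genes C1qa, C1qb, C1qc, C3, Cfb and Cfp, chosen by name from the 22911 named genes on the array and followed through 9 of its 56605 probes. A probe was taken where its RefSeq accession named 1 of these genes. C1qa, C1qb and C1qc had 1 probe each, and C3, Cfb and Cfp had 2 each. RNA came from C5aR+ LysoDCs, phagocytes of the mouse Peyer's patch that express lysozyme and were sorted for the C5a receptor after enrichment of CD11c+ cells. There were 3 untreated samples (C5a at 0 nM) and 3 samples given recombinant C5a at 100 nM for 3 h, each on its own 1-colour array. All 6 samples were cultured with CSF-1 (0.1 μg/mL) and CSF-2 (0.5 μg/mL, spelled CFS-2 in the labels), so the untreated cells also carry the effect of these growth factors. The strain, age and sex of the mice, the culture time of the untreated cells, and whether a replicate is a separate animal or cell preparation are not given in the sources used here, so p-values measure only the spread between these samples.

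Complement is a cascade of proteins that marks surfaces for uptake and lysis. C1q, built from the A, B and C chains that C1qa, C1qb and C1qc encode, recognises bound antibody and dying cells and starts the classical pathway with the proteases C1r and C1s. C3 is the protein on which all pathways converge, factor B (Cfb) is the protease of the alternative pathway, and properdin (Cfp) stabilises its C3-cleaving enzyme. Most plasma complement is made by the liver, while tissue macrophages and dendritic cells are a main source of C1q. C5a is the small fragment released when C5 is cleaved, and the study's question is what it sets off in LysoDCs that carry its receptor.

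All 6 genes gave signal, while most of the cascade did not. Of the 54 readings of the 9 probes on 6 arrays, 51 were well above background by the scanner software's flag, and 6 probes were so on all 6 arrays. Of 47 other complement genes, all with a probe, 37 were well above background on 0 arrays. These were 6 of 7 classical pathway genes (C1ra, C1rb, C1s1, C1s2, C4a and C4b), 8 of 8 lectin pathway genes, the protease Cfd, and 7 of 7 terminal pathway genes including Hc, which encodes C5. Among 12 regulators, 10 were in this state, including Cfi, Serping1, Cd55 and Cd59a. C2, the classical pathway relative of Cfb, was well above background on 1 array. The arrays were dim, so these genes were not detectable at this sensitivity rather than shown to be absent.

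The cells' own markers were mixed. Lyz1, Cd74, H2-Ab1, Apoe, Csf1r, Itgax, Cd68 and Aif1 were detected in all 6 samples. C5ar1, which encodes the C5a receptor used for sorting, was detected in 1 untreated and 2 C5a samples. Cx3cr1, Mertk, Maf and Fcgr1 were well above background on 0 arrays. So were all markers measured for epithelium (7), stroma (5), endothelium (4), mast cells (3) and T and NK cells (7). Of 6 neutrophil markers only Csf3r was detected, and the B cell marker Cd79b was detected on 3 arrays. Of 3 plasmacytoid dendritic cell markers, Siglech and Ccr9 were each detected in 2 untreated and 2 C5a samples, and Ly6d on 0 arrays. Where detected, their median ranks among detected probes were 76.8% for Siglech and 51.6% for Ccr9. The plasma cell marker Xbp1 was detected in all 6 samples. Per array, 2728 to 6959 probes were well above background. Before scaling, the 75th percentile of signal over the 2371 probes detected on all arrays was 163, 459 and 109 for untreated samples 1, 2 and 3. It was 254, 377 and 154 for C5a samples 1, 2 and 3, so number 2 was the brightest and number 3 the dimmest array of each group.

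Levels below are log2 processed signals minus that array's 75th percentile over these 2371 probes, so that a level of 0 lies at this percentile. Ranks give the percentile of a probe's signal among all probes detected on the same array, and, since that number varied, also among the 2371. A probe's brightness depends on its sequence as well as on the amount of transcript, so ranks place a probe among detected probes and give no order of amounts between genes.

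The C1q chains were expressed on every array. C1qc (probe A_51_P102789) had levels of -0.47, 0.65 and -0.95 in untreated 1, 2 and 3 and of -0.29, 0.30 and -0.53 in C5a 1, 2 and 3. C1qa (A_51_P181451) stood at -0.79, 0.03 and -1.35 in untreated and at -0.54, -0.59 and -1.78 in C5a samples. C1qb (A_51_P351860) had the dimmest of these probes, at -2.28, -1.18 and -2.30 in untreated and -2.08, -1.90 and -2.10 in C5a samples. For each chain untreated 2 was the highest of the 6 samples, and the groups overlapped. The median rank over the 6 arrays was 81.3% for C1qc, 77.8% for C1qa and 54.5% for C1qb. Among the 2371 probes, C1qc ranged from 55.8% to 84.7%, C1qa from 34.7% to 75.5% and C1qb from 18.9% to 49.3%.

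**Figure D1:**
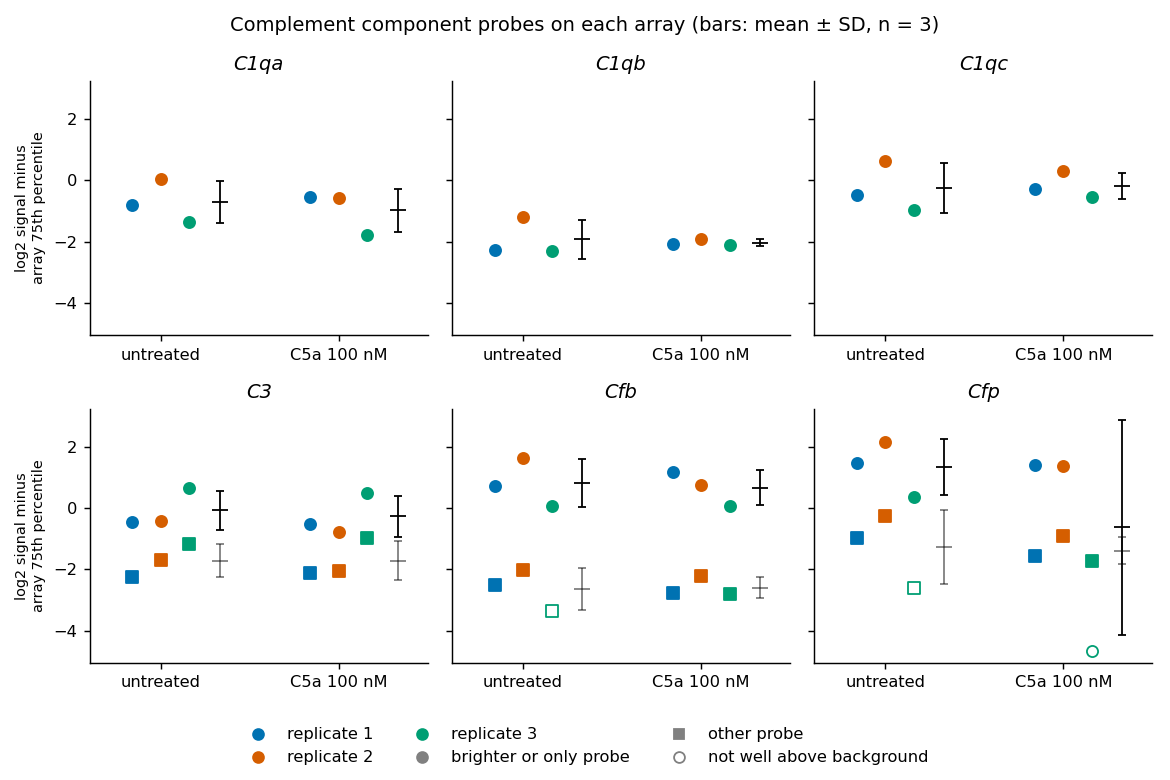
Level of each complement probe (log2 processed signal minus the array's 75th percentile, vertical axis) in untreated and C5a samples. Colours give the replicate number, squares the dimmer probe of a gene, open symbols readings not well above background, and bars the mean ± SD (n = 3). The groups overlap for all 9 probes, C3 is highest in both number 3 samples, and the brighter Cfp probe falls to -4.66 on C5a 3.

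Cfb and Cfp had the brightest probes of the set on the number 1 and number 2 arrays, while on both number 3 arrays the C3 probe below was brighter than either. Cfb (A_51_P413866) had levels of 0.71, 1.63 and 0.07 in untreated 1, 2 and 3 and of 1.18, 0.74 and 0.06 in C5a 1, 2 and 3. Its median rank was 92.6%, with 180 of 6959 detected probes brighter on untreated 2, and among the 2371 probes it lay between 75.8% and 92.4%. The groups overlapped, and the lowest value of each was that of number 3. Cfp (A_51_P408363) stood at 1.47, 2.16 and 0.37 in untreated and at 1.40, 1.37 and -4.66 in C5a samples. On the 5 arrays other than C5a 3 its rank among the 2371 probes was 80.2% to 95.2%, and its median rank among detected probes was 95.6%. On untreated 2 it outshone all but 114 of 6959 detected probes. C5a 3 stood far below the other samples, which overlapped between the groups.

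C3 was detected on every array and was ordered differently across samples. Its brighter probe (A_51_P110301) had levels of -0.45, -0.43 and 0.65 in untreated 1, 2 and 3 and of -0.53, -0.78 and 0.48 in C5a 1, 2 and 3. Both number 3 samples were above the other 4, and the groups overlapped. Its median rank was 85.0%, and among the 2371 probes it ranged from 61.1% to 83.9%.

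**Figure D2:**
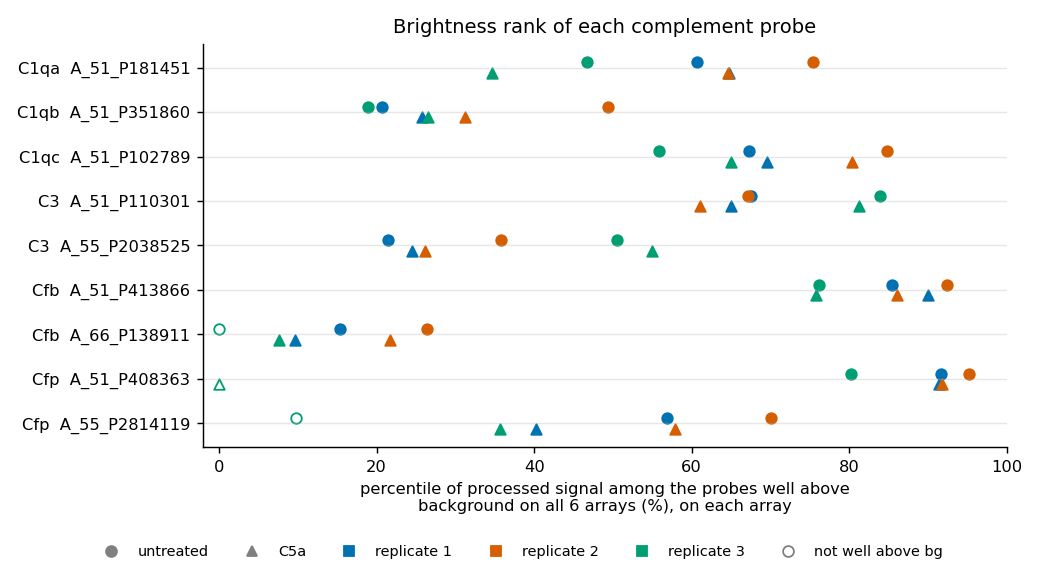
Percentile of each probe's processed signal among the 2371 probes detected on each of the 6 arrays (horizontal axis, %), with circles for untreated and triangles for C5a samples, coloured by replicate number. Open symbols were not well above background. Cfb and Cfp each have a probe near the top, while a second probe of the same gene lies lower, at 7.59% to 26.4% for Cfb where detected.

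The brightness difference between the 2 probes of a gene was larger than its range over arrays, with 1 exception. For C3, the second probe (A_55_P2038525) was dimmer by 1.27 to 1.83 log2 units on the 6 arrays, a range of 0.56. It too was highest in C5a 3 and untreated 3, at -0.98 and -1.18, against -2.25 to -1.70 on the other 4 arrays. For Cfb, the second probe (A_66_P138911, named through another accession of the gene) was dimmer by 2.87 to 3.97 and was not well above background on untreated 3. Over the 415 genes with at least 2 kept probes, the median of this range was 1.22 (quartiles 0.73 and 1.90), and 15.7% of them had a range below that of C3 and 42.9% below that of Cfb.

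The Cfp probes parted on C5a 3. On the other 5 arrays the brighter probe exceeded the second (A_55_P2814119) by 2.27 to 2.98, a range of 0.71. On C5a 3 this difference was -2.93, which took the range over all 6 arrays to 5.90, wider than in 99.5% of the 415 genes. There the brighter probe's spot had a processed signal of 6.08 and a median brightness of 48 over a local background of 34, and the second probe was well above background at a signal of 46.2. The spot bore no outlier mark. On this array 4 of the 606 probes with a signal of at least 100 on all other arrays were not well above background, against 0 to 1 on each of the others. The second Cfp probe had levels of -0.96, -0.26 and -2.61 in untreated and -1.55, -0.90 and -1.73 in C5a samples, with untreated 3 not well above background.

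**Figure D3:**
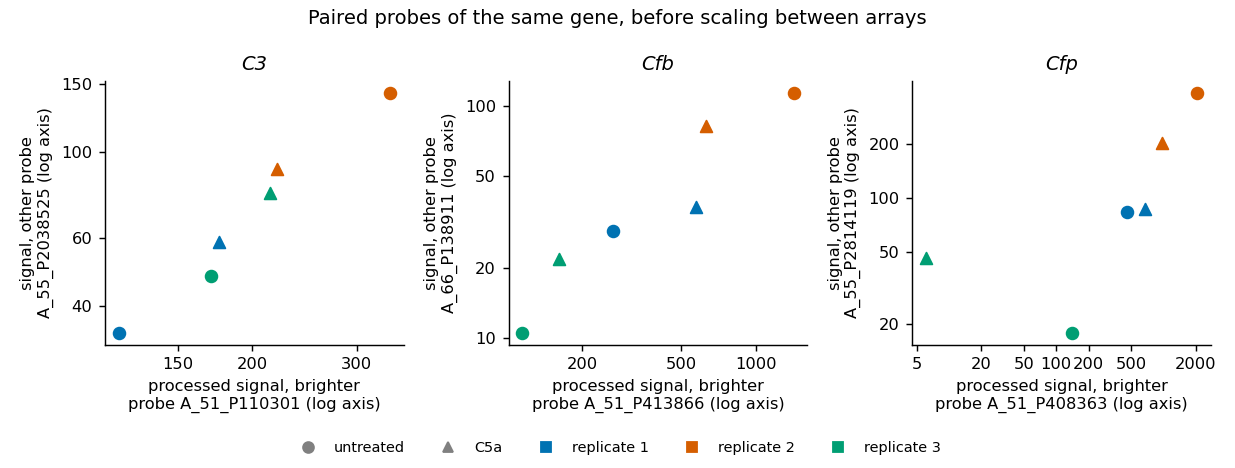
Processed signal of the dimmer probe (vertical, log axis) against that of the brighter probe (horizontal, log axis) of C3, Cfb and Cfp on each array, before scaling. Circles are untreated and triangles C5a samples, coloured by replicate number. Unscaled signals of both probes share each array's brightness, and the points rise together except for Cfp on C5a 3, at 6.08 on the horizontal axis.

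C5a gave no call among these genes. In limma with Benjamini-Hochberg adjustment over 4488 genes, 0 of the 6 had an adjusted p under 0.05 (all 0.999), as had 0 of all genes (0%), and 0 of the 6 had an unadjusted p under 0.05, where 106 of all genes (2.36%) did. With the replicate number as a block, 191 of all genes and 0 of the 6 had an unadjusted p under 0.05, and 0 genes passed the adjusted threshold. The groups overlapped for 6 of 6, where 256 of all genes (5.7%) had groups that did not. Differences were negative for 5 of the 6 and positive for 1, against 45.1% and 54.9% of all genes, with a median of -0.17 beside 0.04 over all genes tested.

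C1qa had a mean level of -0.70 ± 0.69 (SD, n = 3) without C5a and of -0.97 ± 0.70 with it. Its log2 difference was -0.27 (SE 0.49, 95% interval -1.42 to 0.88). C1qb differed by -0.10 (SE 0.37, interval -0.97 to 0.76), and its SD was 0.64 in untreated and 0.11 in C5a samples. C1qc differed by 0.08 (SE 0.46, interval -1.01 to 1.17). The chains of 1 protein thus had differences of unlike sign, all within their errors. Among same-numbered samples, only number 2 was lower with C5a for all C1q chains, by -0.62 for C1qa, -0.72 for C1qb and -0.35 for C1qc.

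C3 differed by -0.20 (SE 0.46, interval -1.28 to 0.89) by its brighter probe. In a fit over all 4958 kept probes, in which 0 (0%) had an adjusted p under 0.05 and 118 (2.38%) an unadjusted one, its second probe differed by -0.01 (SE 0.43). Cfb differed by -0.14 (SE 0.48, interval -1.27 to 0.99) and by 0.03 (SE 0.40) with its second probe. The intervals of the genes given so far reach from -1.42 to 1.17. Each interval holds the changes compatible with that gene's data, and it is not a limit of detection. With the replicate number as a block the SEs were smaller, at 0.27 for C1qa, 0.29 for C1qb, 0.25 for C1qc, 0.21 for C3 and 0.33 for Cfb, and the differences were the same, with adjusted p of 0.928 to 0.980 in limma.

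Cfp had a mean level of 1.34 ± 0.91 without C5a and of -0.63 ± 3.49 with it. Its difference was -1.97 (SE 1.58, interval -5.68 to 1.75). The value rests on the C5a 3 spot. Without C5a replicate 3 the difference was 0.049, with untreated 3, the lowest untreated sample at 0.37, still in the fit. The same-numbered differences were -0.07 and -0.80 for numbers 1 and 2. The second probe differed by -0.12 (SE 0.60, interval -1.53 to 1.30), and by -0.58, -0.64 and 0.87 for numbers 1, 2 and 3. The array row of the slide is part of the layout too, since row 1 held the untreated samples and C5a 1, and row 2 held C5a 2 and 3. With the row in the model, only C5a 1 shares a row with untreated samples. The differences were then 0.16 for C1qa, -0.16 for C1qb, -0.032 for C1qc, -0.45 for C3, 0.38 for Cfb and 0.067 for Cfp, with adjusted p = 0.999 in limma for each.

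**Figure D4:**
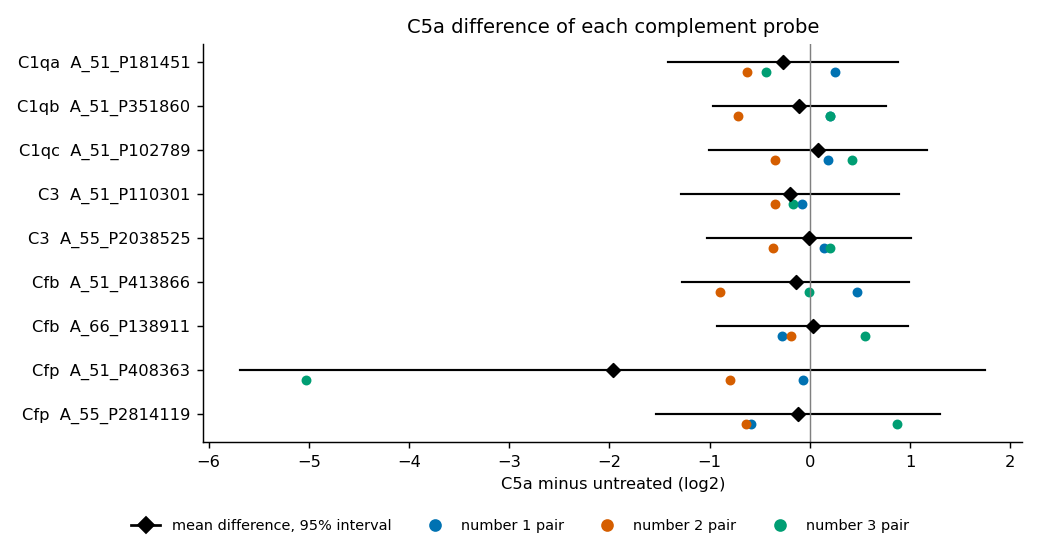
C5a minus untreated (log2, horizontal axis) for each probe, as the limma estimate with its 95% interval (diamond and line) and for each pair of same-numbered samples (coloured dots). All 9 intervals include 0, and the -1.97 of the brighter Cfp probe comes with a number 3 pair at -5.03.

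C3 and the other genes lay apart by replicate number. Differences between probes on 1 array do not depend on the scaling, and all pairs given here except C1qa minus C1qc and C1qb minus C1qc were chosen after their values had been seen. C3 minus C1qc was 0.013, -1.07 and 1.60 in untreated samples 1, 2 and 3, and with C5a it was -0.24, -1.07 and 1.00. C3 minus Cfb was -1.16, -2.06 and 0.58 on untreated and -1.71, -1.52 and 0.41 on C5a arrays. Number 3 was the highest of each group in both differences, whose ranges over the 6 arrays were 2.67 and 2.64.

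Without C3 and Cfp, the differences among Cfb and the C1q chains ranged less widely than those with C3, and unequally among themselves. Cfb minus C1qa, the narrowest, was 1.49, 1.60 and 1.42 on untreated and 1.72, 1.33 and 1.84 on C5a arrays, a range of 0.51. Among the C1q chains, C1qa minus C1qc ranged over 1.00 (-1.25 on C5a 3 to -0.25 on C5a 1) and C1qb minus C1qc over 0.84 (-2.19 on C5a 2 to -1.36 on untreated 3). C1qa minus C1qb ranged over 1.22, Cfb minus C1qc over 1.03, and Cfb minus C1qb lay between 2.16 on C5a 3 and 3.26 on C5a 1. With the median spot signal minus local background in place of the processed signal, an alternative added after the data were seen, the ranges were 0.28 for C1qa minus C1qc, 0.31 for Cfb minus C1qc and 0.38 for Cfb minus C1qa. They were 0.86 for C1qb minus C1qc, 0.94 for C1qa minus C1qb and 1.06 for Cfb minus C1qb, so the pairs with C1qb stayed wider. Those with C3 were 1.86 to 2.56.

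Such a split by number was common on these arrays. Of 2179 genes detected on all 6 arrays, 432 (19.8%) had both number 3 samples above the other 4, C3 among them, and 349 (16.0%) had both below, among them C1qa, C1qc and Cfb. Number 3 was also the dimmest array of each group, and the part of array brightness in the C3 pattern was not tested. The summed signal of 5 B cell markers, relative to the 75th percentile, was 0.337 and 0.255 on untreated 3 and C5a 3 and 0.104 to 0.216 on the other arrays. The sum for 7 T and NK cell markers, none of them well above background on any array, was 0.245 and 0.148 there and 0.0496 to 0.148 on the others. Sums for lists with no detected marker were highest on untreated 3 too, such as the 5 stroma markers at 0.206 there, 0.106 on C5a 3 and 0.0358 to 0.0985 on the others. The sum for 4 plasma cell markers ran the other way, at 0.407 and 0.394 on the number 3 arrays and 0.656 to 0.757 on the others. That sum rests mostly on Xbp1, with levels of -1.96 and -1.78 on the number 3 arrays and -0.91 to -0.53 on the others. Jchain, Sdc1 and Mzb1 were each well above background on at most 1 array of each group, so the sum is no measure of plasma cell content. The sum for 3 plasmacytoid dendritic cell markers was 0.271 on untreated 3 and 0.539 on C5a 3, and 0.18 to 0.908 on the others. The part of other cell types in the C3 pattern was not tested. In RNA from a whole sorted population, fewer expressing cells and less RNA per cell cannot be told apart.

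**Figure D5:**
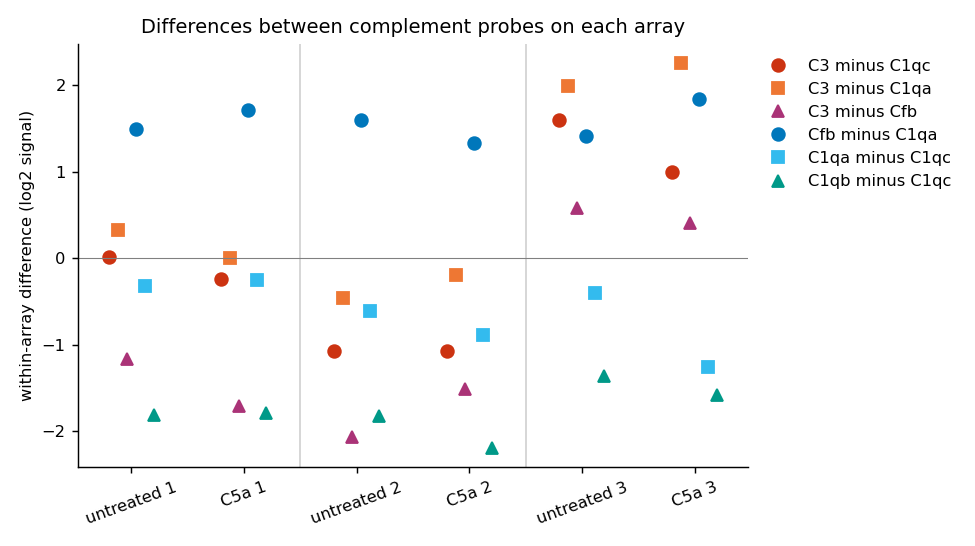
Differences in log2 processed signal between complement probes on the same array (vertical axis), with arrays ordered by replicate number. C3 minus C1qc reaches 1.60 and 1.00 in number 3 and is -1.07 on both number 2 arrays, while Cfb minus C1qa stays between 1.33 and 1.84.

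Correlations over the 6 arrays describe points that share their array's brightness. C1qa correlated with Cfb at 0.954, with C1qc at 0.805 and with C1qb at 0.713, and C1qb with C1qc at 0.897. C3 correlated with C1qa at -0.807 and with Cfb at -0.754. By likeness to C1qa among 1425 named genes, Cfb took rank 8, C1qc rank 119 and C1qb rank 196. By likeness to C1qb, C1qc took rank 22. Many genes outside the set thus ran closer to a C1q chain than another chain did. Among 1425 named genes detected on all arrays, the patterns most like C3 were those of Mmp13, a collagenase (r = 0.990), Tra2b, a splicing factor (0.984), and Mcpt-ps1 (0.981). Those most like C1qc were Lasp1, an actin-binding protein (0.990), Serinc1 (0.983) and Degs1, a ceramide synthesis enzyme (0.978). C1qa was most like Il2rg, the common cytokine receptor gamma chain (0.976), Plekhm2 (0.973) and Tmem50b (0.973). C1qb was most like Jund, an AP-1 subunit (0.957), Lamp1, a lysosomal membrane protein (0.954), and Chp1 (0.945). Cfb was most like Arl6ip5 (0.966), Cytip (0.965) and H2-T-ps (0.958). Cfp was left out, since no probe of it was detected on all arrays. The genes named for each member have the highest of 1425 correlations over only 6 points. Shared regulation with the members was not tested.

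The promoters of C1qb and C1qc are shown beside that of C3 because the first pair correlated over the arrays and C3 ran against both, at -0.394 with C1qb and -0.719 with C1qc. No promoter sequence was at hand for C1qa and Cfb, the pair with the highest correlation. C1qa, C1qb and C1qc are neighbours on chromosome 4. The sequences are RefSeq's of GRCm38.p6, each of 300 bases on the minus strand around the annotated start, and capitals mark matches to the motifs searched.
C1qb, chr4:136886151-136886450: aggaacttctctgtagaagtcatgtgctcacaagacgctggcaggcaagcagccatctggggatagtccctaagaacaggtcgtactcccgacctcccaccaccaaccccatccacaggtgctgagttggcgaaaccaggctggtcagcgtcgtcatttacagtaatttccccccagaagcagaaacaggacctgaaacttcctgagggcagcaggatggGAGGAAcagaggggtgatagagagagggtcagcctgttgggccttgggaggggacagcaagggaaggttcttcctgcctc
C1qc, chr4:136892865-136893164: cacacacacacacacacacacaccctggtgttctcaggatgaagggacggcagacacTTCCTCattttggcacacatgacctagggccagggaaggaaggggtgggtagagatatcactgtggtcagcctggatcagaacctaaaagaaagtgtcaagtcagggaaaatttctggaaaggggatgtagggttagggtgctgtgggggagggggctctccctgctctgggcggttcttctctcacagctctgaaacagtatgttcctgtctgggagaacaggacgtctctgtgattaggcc
C3, chr17:57228087-57228386: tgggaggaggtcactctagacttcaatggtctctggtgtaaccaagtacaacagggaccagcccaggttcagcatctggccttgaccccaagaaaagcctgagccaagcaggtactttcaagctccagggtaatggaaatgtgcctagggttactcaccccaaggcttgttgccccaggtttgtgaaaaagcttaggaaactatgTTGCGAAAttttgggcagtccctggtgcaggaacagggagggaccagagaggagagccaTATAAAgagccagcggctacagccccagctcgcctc

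The motifs were searched on both strands and chosen with the sequences in view. C1qb held GAGGAA, an ETS core that the myeloid factor PU.1 reads, at bases 221 to 226, and C1qc held it on the opposite strand at bases 58 to 63. The Cfp promoter, not shown, held it on the opposite strand at bases 257 to 262 and 273 to 278. This motif occurs in 28.3% of 32851 promoters of the same length. C3 held TTGCGAAA, searched as a C/EBP motif, at bases 206 to 213 (0.174% of promoters). It also held TATAAA, the TATA box, at bases 265 to 270 (13.6%). Since the motifs were chosen with the sequences in view, these shares are no test of C3. The AP-1 motif TGACTCA (5.2% of promoters) and the interferon response element (3.44%) matched in none of the 3 windows. No match overlapped another, and a match is a run of letters, not a measured binding site.

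Of the 47 other complement genes, 7 were bright enough to test, and 0 passed (limma with Benjamini-Hochberg adjustment), with 0 at an unadjusted p under 0.05. Their differences were positive for 4 and negative for 3, with a median of 0.03. Those of the receptors for cleaved C3 on phagocytes were -0.23 (SE 0.46) for Itgam, 0.46 (SE 0.37) for Itgax and 0.03 (SE 0.31) for their shared chain Itgb2. C5ar1 differed by -0.28 (SE 0.51). The C1q-binding proteins C1qbp and Calr differed by 0.15 (SE 0.36) and 0.18 (SE 0.40), and Cr1l, the mouse regulator Crry that protects cells from C3 deposition, by -0.18 (SE 0.33). C3ar1, the C3a receptor gene, and Cr2 were well above background on 0 arrays.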

How the data were processed

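RNA of 6 samples was hybridised to 1-colour (Cy3) Agilent arrays, all on 1 slide and scanned together. Per the file headers, the authors read them with Feature Extraction 10.10.1.1 (protocol GE1_1100_Jul11, design 074809). The deposited files hold each spot's intensity (processed signal, and the median of spot and local background) and flags, with no scaling between arrays. The deposited series table holds log2 values: 99.0% of its differences between arrays lay within 0.01 of log2 processed signal scaled to the all-probe 75th percentile of the array. Its per-probe baseline stays unknown, and its column medians were 0.17, -0.08, 0.18, 0.01, -0.02 and 0.22 (untreated 1 to 3, C5a 1 to 3).

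Spots of a probe were averaged as log2, leaving out controls and spots with outlier marks (112 to 138 per array). Marked spots were kept where all spots of a probe bore the mark. Saturated spots numbered 0. Detection of a probe meant that at least 0.5 of its spots bore the flag for well above background. Accessions were named through RefSeq's GRCm38.p6 table (32994 probes matched). The array cites mm9, so gene coordinates were not used. Values were scaled to the 75th percentile over 2371 probes detected on all arrays, since at most 6959 of 56605 were detected on an array. Probes detected on at least 3 arrays were kept, with the brightest taken per gene (4488 genes). The genes were tested with limma 3.58.1 in R 4.3.3 at a threshold of 0.05. The fit was checked on simulated data with changes larger than any member's difference and a common spread for all genes. Small changes were outside that check. The members, lists and motifs were chosen with earlier results of these data known. Genes named with differences were all members and the other complement genes that were tested, and the 3 genes most like each member except Cfp were named with their correlation. Untested complement genes and cell markers are named for their detection only, chosen after it was seen. The number of arrays limits the precision.

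Same-numbered samples deviated together from their group means (r = 0.21, 0.27 and 0.38 over all genes for numbers 1, 2 and 3). Between unlike numbers r was 0.071 and 0.039 for numbers 1 and 2, and -0.25 to -0.22 where number 3 was 1 of the pair. Whether equal numbers mark a shared preparation is not given, and the part of array brightness in these correlations was not tested. The comparison was also run with the replicate block.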

Additional observations from a re-analysis of the deposited data

How the results depend on the processing

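No member passed the test in any of the settings in which it was measured, the replicate block included, so the limits concern sign and size. The replicate block changed no call and left the differences as they were, at -0.27 for C1qa, -0.10 for C1qb, 0.08 for C1qc, -0.20 for C3, -0.14 for Cfb and -1.97 for Cfp, with SEs of 0.27, 0.29, 0.25, 0.21, 0.33 and 1.02. Without the filter on dim probes limma called 47 genes where the main test called 0, none of them a member. Scaling to the 75th percentile over all probes moved the median difference of all genes from 0.04 to 0.40, and differences there were 0.093 for C1qa, 0.26 for C1qb, 0.16 for C3, 0.22 for Cfb, and 0.36 and 0.25 for the second probes of C3 and Cfp. The deposited series table gave 0.09, 0.26, 0.17, 0.22, 0.36 and 0.25 in the same order. Below the median of all genes lay 5 of 6 members in the main scaling and 5 of 6 in each of these. With normexp (median of all genes -0.12) the values were -0.077 for C1qc, 0.063 for Cfb and -0.23 for its second probe. With quantile normalization that median was 0.10, and 6 of 6 members lay below it, against 3 of 6 with normexp. With the slide row as a covariate they were 0.16 for C1qa, -0.032 for C1qc, 0.38 for Cfb, 0.067 for Cfp and -0.16 for the second Cfb probe. Leaving out 1 sample at a time gave -0.59 to 0.14 for C1qa, -0.30 to 0.27 for C1qb, -0.26 to 0.54 for C1qc, -0.57 to 0.17 for C3, -0.51 to 0.27 for Cfb and -2.98 to 0.049 for Cfp, and -0.38 to 0.26, -0.34 to 0.33 and -0.78 to 0.39 for the second probes of C3, Cfb and Cfp. The cause of the changes of sign was not tested. With a rank among the probes detected on each array in place of those detected on all, C1qb averaged 54.7% in place of 28.7% and C3 84.5% in place of 71.0%.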
